A study of Mus musculus with 9 samples.

Results

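Heat shock proteins are the chaperones that fold new proteins, hold damaged ones and hand them on for repair or breakdown. RNA of 10 of their genes was followed in the liver of diabetic mice: Hspa1b, Hspa8, Hsp90aa1, Hsp90ab1, Hsph1, Hspb1, Dnaja1 and Dnajb1 of the cytosol, and Hspd1 and Hspe1 of mitochondria. Members were the array probe sets annotated to 1 of these symbols alone, which gave 24 of the 45037 probe sets tested. They cover 9 of the 10 genes, and Hsp90ab1 was not analysed here. A probe set is a group of short DNA probes that report 1 transcript or a group of like transcripts, and each was described on its own.

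The livers came from male mice aged 14 weeks on standard chow. The 4 db/db samples are of mice (BKS.Cg-Leprdb) that carry the db mutation of the leptin receptor gene Lepr and become obese and diabetic with fatty liver. The 5 BKS control samples are of C57BL/KSlepr+/+ littermates with the intact receptor. The mutation is carried in every cell, so the liver was measured together with the obesity and diabetes of the whole animal. Each sample was hybridised to its own array. Lepr itself was dim on its 4 probe sets and did not pass on any of them (Benjamini-Hochberg adjusted p of 0.334 to 0.881 in limma). Because the db mutation alters how Lepr RNA is spliced, its level is no check of the genotypes.

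As background, heat shock factors such as HSF1 are held inactive by chaperones and are released when misfolded proteins draw the chaperones away. They then bind heat shock elements, runs of inverted GAA units, upstream of chaperone genes. Hsp70 proteins bind and release unfolded chains with the help of J-domain proteins, which start the cycle, and of Hsp110 proteins, which reset it, while Hsp90 matures receptors and kinases. In liver, the inducible members also follow body temperature, feeding and the time of day.

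The promoters were searched for exact pairs of units of the element that heat shock factors read. RefSeq (GRCm38.p6) gave windows for 7 of the 10 genes, and none for Hsp90aa1, Hspa8 and Hsp90ab1. The 250 bases before each start were searched on both strands for GAANNTTC and TTCNNGAA, the 2 arrangements of a pair of inverted GAA units, which can overlap each other. The windows of Hspb1 and Hspa1b are shown because these genes had the largest differences between genotypes, and 30-base stretches of Hsph1 and of the region shared by Hspd1 and Hspe1 for contrast. Capitals mark the matches, and all are written 5′ to 3′ on the strand of the gene named.
Hspb1 (chr5:135887669-135887918, plus strand): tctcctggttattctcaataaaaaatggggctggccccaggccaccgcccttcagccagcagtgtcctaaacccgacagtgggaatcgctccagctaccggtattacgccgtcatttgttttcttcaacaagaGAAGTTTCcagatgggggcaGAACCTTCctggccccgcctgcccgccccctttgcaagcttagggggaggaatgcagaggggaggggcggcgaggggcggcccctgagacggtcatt
Hspa1b (chr17:34959239-34959488, minus strand): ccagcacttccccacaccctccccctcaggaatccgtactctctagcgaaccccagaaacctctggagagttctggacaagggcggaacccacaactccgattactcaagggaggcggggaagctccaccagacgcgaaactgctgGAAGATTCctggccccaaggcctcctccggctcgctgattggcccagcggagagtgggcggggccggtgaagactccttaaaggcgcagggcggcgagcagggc
Hsph1 (chr5:149636351-149636380, minus strand): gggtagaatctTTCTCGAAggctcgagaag
Hspe1 (chr1:55088053-55088082, plus strand): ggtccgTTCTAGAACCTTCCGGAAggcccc

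Hspb1 held 2 matches, which began 117 and 97 bases before its start. Hspa1b held 1, at 104 bases, and Hsph1 1, at 33 bases before the first of its 2 listed starts. The densest run was that of Hspe1, with 3 overlapping matches from 89 bases before its start. These bases also lie in 1 of the 2 windows of Hspd1, which is read in the opposite direction. Dnaja1 held 1 match in 1 of its 3 windows and Dnajb1 none in its 2. Over 32851 mouse windows of the same length, 6.69% held GAANNTTC, 7.17% held TTCNNGAA and 12.8% held either. A match is a description of the sequence and not a bound site. Hspa1b and its neighbour Hspa1a share 247 of their 250 upstream bases, and the transcripts are nearly the same too, so the Hspa1b probe sets may also report Hspa1a.

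The arrays had been scaled to a common level, with medians from 67.4 to 110.8, and were compared as quantile-normalized log2 signal. Control probe sets for 18S ribosomal RNA split the arrays into sets: BKS 4, BKS 5, db/db 3 and db/db 4 had signals of 426 to 19771, and the other 5 arrays 6.4 to 43.5. Both sets hold both genotypes, and within-set values are given for the heat shock genes. The ratio of 3′ to 5′ signal, which rises as RNA degrades, was 0.88 to 1.77 in BKS and 0.80 to 1.09 in db/db for Gapdh, and 1.68 to 5.93 and 1.62 to 3.98 for beta-actin. BKS 4 was highest for both transcripts. By 18S set, the beta-actin ratio was 1.62 to 3.32 on the low and 3.18 to 5.93 on the high arrays. The Gapdh ratio was 0.80 to 1.53 and 0.96 to 1.77. The sets thus differ in more than 18S signal. Hepatocyte markers were bright in every sample, with a summed signal of 8 genes of 312510 to 318290 in BKS and 293046 to 321161 in db/db. The labels number the samples but not the animals, so the spread behind the p-values may be technical.

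RNA of the small heat shock protein gene Hspb1 fell about 6-fold to 8-fold in db/db liver. RNA of Hsp90aa1, the inducible cytosolic Hsp90, fell 1.89-fold on 1438902_a_at and 1.73-fold on 1437497_a_at, while its other probe sets did not pass. Hspa1b, the inducible Hsp70, stood lower by 3.34-fold to 3.85-fold on its 3 probe sets but varied widely within both groups and did not pass. The constitutive Hspa8, the J-domain genes and the mitochondrial Hspd1 and Hspe1 did not pass either. In numbers, 4 of the 24 probe sets fell and none rose (limma, adjusted p under 0.05), and 10 had an unadjusted p under 0.05. Over all 45037 probe sets 2.77% were called, 1.19% lower and 1.58% higher, and 13.2% had an unadjusted p under 0.05. The median difference (db/db minus BKS) was -0.41 on the log2 scale over the 24 probe sets, of which 19 were negative, and -0.01 over all probe sets, of which 50.5% were negative. In separate fits of the low and high 18S arrays the median over the 24 was -0.17 and -0.83, against 0.001 and -0.010 over all probe sets. On the signal normalized over all arrays, 12 of the 24 had negative differences within both sets. The share of all probe sets with that property was not counted. Probe sets of 1 gene share their transcript and are not independent. By the brightest probe set of each gene, 2 of 9 genes fell, against 1.89% of 18193 genes (4.11% called in either direction). With the 18S split described above as a block, 6 of the 24 fell, against 2.25% of all probe sets. In whole liver, fewer cells of a type and less RNA per cell cannot be told apart.

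**Figure D1:**
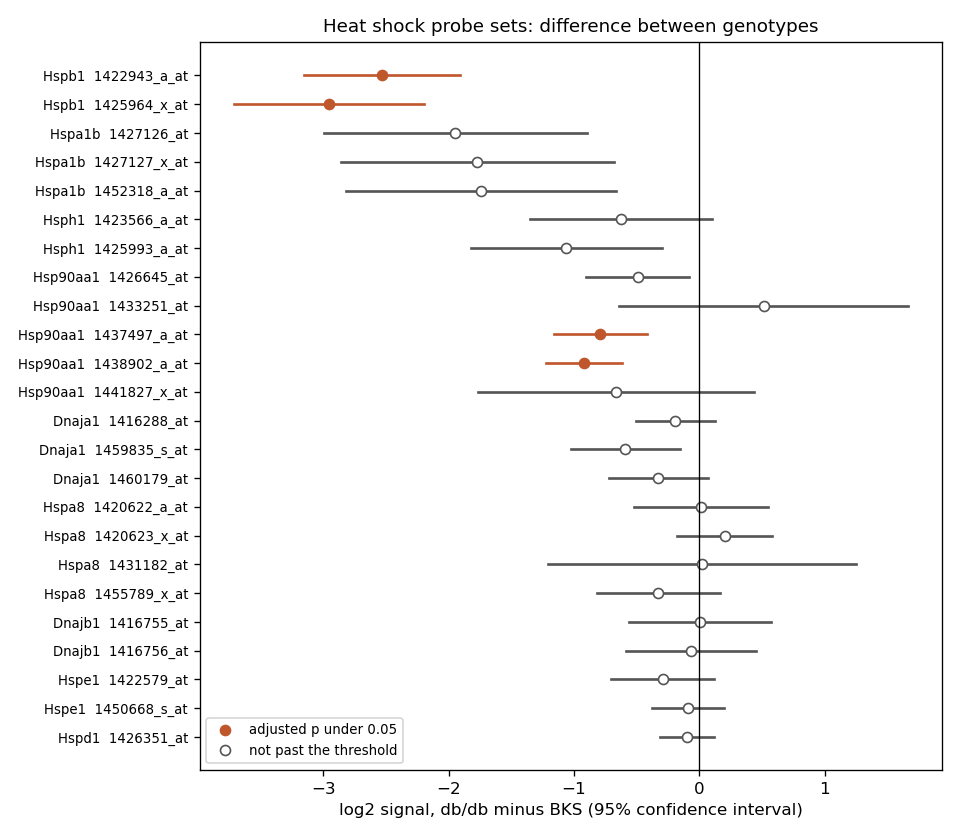
Difference in log2 signal (db/db minus BKS, horizontal axis) with its 95% confidence interval for each of the 24 probe sets (vertical axis). Filled points passed at an adjusted p under 0.05: both probe sets of Hspb1 and 2 of the 5 of Hsp90aa1, all lower in db/db.

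Hspb1 encodes a small heat shock protein (Hsp25 in mice) that holds unfolding proteins without using ATP and binds actin filaments. On probe set 1422943_a_at its log2 signal was 12.11, 12.34, 12.20, 12.39 and 11.45 in BKS 1 to 5 and 9.81, 10.21, 8.50 and 9.74 in db/db 1 to 4. All db/db arrays lay below all BKS arrays, and db/db 3 was the lowest. In the deposited intensities the BKS arrays ran from 2805 to 5748 and the db/db arrays from 317 to 1197. The difference was -2.53 (SE 0.29, n = 5 and 4, limma adjusted p = 1.95e-04), a 5.79-fold fall with a 95% interval of 3.76-fold to 8.90-fold.

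The other Hspb1 probe set, 1425964_x_at, had log2 signals of 11.44, 11.49, 11.64, 12.06 and 10.44 in BKS and 8.83, 9.05, 7.26 and 8.69 in db/db. Its suffix marks probes that may also bind related transcripts. It fell 7.76-fold (-2.96, SE 0.35, adjusted p = 2.85e-04), and again the groups did not overlap, as was the case for 3.04% of all probe sets in that direction and 3.48% in the other. Within the arrays of low 18S signal the differences of the probe sets were -2.21 and -2.58, and within those of high 18S signal -2.80 and -3.28. Both calls held in each of the 9 fits that left out an array, with differences of -2.76 to -2.16 and -3.19 to -2.54. The value nearest to 0 came without db/db 3 in both cases.

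Hspa1b encodes the Hsp70 that is scarce in unstressed cells and made in bulk after heat or proteotoxic stress. Its brightest probe set, 1452318_a_at, had log2 signals of 12.42, 12.53, 11.45, 13.88 and 11.05 in BKS and 10.22, 11.88, 9.68 and 10.33 in db/db. BKS 4 stood well above the other BKS arrays. Among the db/db arrays, db/db 2 reached into the BKS range while the other 3 lay below all BKS arrays. The difference was -1.74 (SE 0.50, adjusted p = 0.0932), with a 95% interval of 1.58-fold to 7.05-fold lower before adjustment for the number of tests.

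The other 2 probe sets of Hspa1b followed the same order of arrays at the extremes, with BKS 4 highest and db/db 3 lowest. Probe set 1427126_at had 11.06, 11.42, 10.70, 12.87 and 10.42 in BKS and 8.97, 10.87, 8.44 and 9.13 in db/db, a difference of -1.94 (SE 0.49) whose adjusted p of 0.05005 lay just above the threshold. Probe set 1427127_x_at was at -1.77 (SE 0.51, adjusted p = 0.0906), with 10.80 to 13.40 in BKS and 9.29 to 11.72 in db/db. All 3 passed without db/db 2, at -2.46, -2.34 and -2.20 (adjusted p = 0.00791, 0.0102 and 0.0298 for 1427126_at, 1427127_x_at and 1452318_a_at). Without BKS 5, 1427126_at and 1452318_a_at passed at -2.15 and -2.03 (adjusted p = 0.0373 and 0.0406). Without BKS 4 the differences shrank to -1.54, -1.37 and -1.33, and none passed (adjusted p = 0.0824, 0.161 and 0.159). With the 18S split as a block 1427126_at passed (-1.93, adjusted p = 0.0278) and the other 2 did not (adjusted p = 0.0544 and 0.0576). It also passed with array weights (-1.84, adjusted p = 0.0386), and with fewer probe sets tested, either those with a mean log2 signal of at least 7 (adjusted p = 0.0470) or those with 1 gene symbol (adjusted p = 0.0497). On the arrays of low 18S signal the differences of 1427126_at, 1427127_x_at and 1452318_a_at were -1.14, -0.87 and -1.09, and on those of high 18S signal -2.86, -2.77 and -2.46. Hspa1a, the twin gene next to Hspa1b, was dim on its only probe set (7.50 ± 0.70 in BKS and 6.09 ± 0.90 in db/db, SD) and stood at -1.41 (SE 0.48, adjusted p = 0.175).

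**Figure D2:**
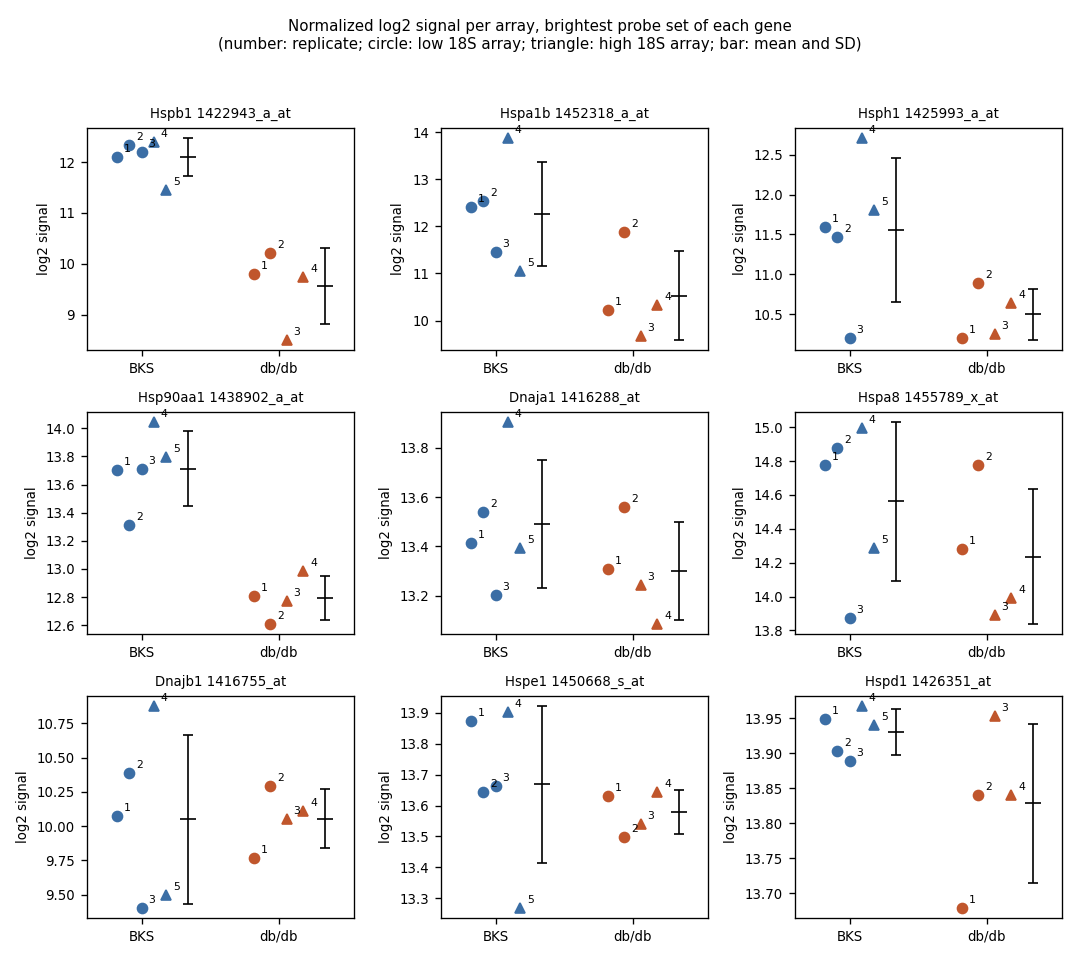
Normalized log2 signal (vertical axis) of the brightest probe set of each of the 9 genes on every array, BKS in blue and db/db in orange, with the replicate number beside each point and the mean and SD at the side of each group. Circles are arrays of low and triangles arrays of high 18S signal. The groups are apart for Hspb1 and Hsp90aa1, while for Hspa1b db/db 2 lies among the BKS arrays.

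Hsph1 encodes an Hsp110 protein that exchanges the nucleotide on Hsp70 and so resets its cycle. On 1425993_a_at the log2 signal was 11.59, 11.47, 10.20, 12.71 and 11.81 in BKS and 10.21, 10.89, 10.26 and 10.64 in db/db. The lowest array of all was BKS 3, and the other 4 BKS arrays lay above all db/db arrays. The difference of -1.06 (SE 0.36) did not pass (adjusted p = 0.166), and without BKS 3 it was -1.41 and passed (adjusted p = 0.00978). Without BKS 4 it was -0.76 (adjusted p = 0.276).

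On the dimmer Hsph1 probe set, 1423566_a_at, signals ran from 9.14 to 11.02 in BKS and from 9.14 to 9.61 in db/db, with a difference of -0.62 (SE 0.34, adjusted p = 0.478). Both Hsph1 differences were larger in size on the arrays of high 18S signal. There they were -1.81 for 1425993_a_at and -1.59 for 1423566_a_at, against -0.54 and 0.08 on the arrays of low 18S signal. When the high 18S arrays were normalized and tested alone, both probe sets passed (-1.91 and -1.65, adjusted p = 0.0142 and 0.00615). That fit holds only 2 arrays of each genotype, and BKS 4, the highest array on both probe sets, is 1 of them. The change in genotype difference between the array sets was itself -1.68 (SE 0.41, unadjusted p = 0.0012) for 1423566_a_at. It did not pass over all probe sets (limma interaction, adjusted p = 0.482), nor did that of any other heat shock probe set. In that test 5 of the 24 heat shock probe sets had an unadjusted p under 0.05, against 6.48% of all probe sets. Among them was Hspe1 1422579_at (-0.86, SE 0.23, unadjusted p = 0.0023).

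Hsp90aa1 encodes Hsp90 alpha, the Hsp90 that rises with stress and keeps steroid receptors and kinases ready to act. Its brightest probe set, 1438902_a_at, had log2 signals of 13.71, 13.31, 13.71, 14.05 and 13.80 in BKS and 12.81, 12.61, 12.77 and 12.99 in db/db. The groups did not overlap, and the spread within each was small beside the gap. The fall was 1.89-fold (-0.92, SE 0.14, adjusted p = 0.00228, 95% interval 1.53-fold to 2.34-fold), and the difference was -0.87 on arrays of low and -1.04 on arrays of high 18S signal. The call held in all 9 fits that left out an array (-1.03 to -0.82). It was lost with arrays centred on their medians (-0.83, adjusted p = 0.257), without an intensity trend in the test (adjusted p = 0.0858) and in the low 18S arrays alone (-0.81, adjusted p = 0.0591).

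Probe set 1437497_a_at of Hsp90aa1 had 11.67, 12.03, 11.80, 12.02 and 11.37 in BKS and 10.94, 11.42, 10.87 and 10.74 in db/db. Here db/db 2 rose just above BKS 5, the lowest BKS array. The gene fell 1.73-fold on this probe set (-0.79, SE 0.17, adjusted p = 0.0222), with -0.65 and -0.90 at low and high 18S signal. That call was lost without BKS 3 (-0.79), BKS 4 (-0.72), db/db 1 (-0.77), db/db 3 (-0.74) or db/db 4 (-0.70), with adjusted p from 0.0529 to 0.0889. Probe set 1426645_at was at -0.49 (SE 0.19, adjusted p = 0.254), with 12.24 to 12.84 in BKS and 11.49 to 12.48 in db/db, and differences of -0.19 and -0.77 at low and high 18S signal. The remaining 2, 1433251_at and 1441827_x_at, were dim, with means over all arrays under 7 on the log2 scale, and stood at 0.51 (SE 0.54) and -0.67 (SE 0.51). No filter removed them, and their wide intervals, from -0.64 to 1.66 and from -1.77 to 0.44, allow a change in either direction. At low 18S signal they were at 1.04 and -0.45, and at high 18S signal at -0.24 and -1.09.

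Dnaja1 and Dnajb1 encode J-domain proteins that deliver clients to Hsp70 and trigger its ATP cycle. The brightest Dnaja1 probe set, 1416288_at, had log2 signals of 13.41, 13.54, 13.20, 13.91 and 13.39 in BKS and 13.31, 13.56, 13.24 and 13.08 in db/db. The groups overlapped, and the difference was -0.19 (SE 0.15, adjusted p = 0.661, 95% interval -0.51 to 0.12). Probe sets 1460179_at and 1459835_s_at were at -0.33 (SE 0.18, adjusted p = 0.493) and -0.59 (SE 0.20, adjusted p = 0.177). On the latter, whose suffix marks probes shared by several transcripts, BKS ran from 11.69 to 12.74 and db/db from 11.13 to 11.76, and it passed with the 18S split as a block (-0.64, adjusted p = 0.0325). The differences of 1416288_at, 1460179_at and 1459835_s_at were 0.05, 0.03 and -0.42 where 18S signal was low and -0.49, -0.69 and -0.90 where it was high.

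Dnajb1, the inducible partner of Hspa1b, was close to equal between the groups. On 1416755_at it had 10.07, 10.39, 9.40, 10.88 and 9.50 in BKS and 9.77, 10.29, 10.05 and 10.11 in db/db, a difference of 0.01 (SE 0.26, 95% interval -0.56 to 0.57). The SD was 0.62 among BKS and 0.22 among db/db arrays. On 1416756_at the difference was -0.07 (SE 0.24, 95% interval -0.59 to 0.45). On the arrays of low 18S signal the differences were 0.08 and 0.35, and on those of high 18S signal -0.11 and -0.53. The intervals over all arrays allow changes of up to about 1.5-fold in either direction.

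Hspa8 encodes Hsc70, the constitutive Hsp70 of the cytosol that also uncoats clathrin vesicles and serves chaperone-mediated autophagy. Its brightest probe set, 1455789_x_at, had 14.78, 14.88, 13.87, 14.99 and 14.29 in BKS and 14.28, 14.78, 13.89 and 13.99 in db/db. BKS 3 was the lowest array, just under db/db 3, so the groups overlapped fully, and the difference was -0.33 (SE 0.23, adjusted p = 0.617). Probe sets 1420623_x_at and 1420622_a_at were at 0.20 (SE 0.18, adjusted p = 0.714) and 0.01 (SE 0.25, adjusted p = 0.991). The 3 bright probe sets did not share a sign. In the order given they were at 0.02, 0.41 and 0.19 on arrays of low 18S signal and at -0.70, -0.08 and -0.34 on arrays of high 18S signal.

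The fourth Hspa8 probe set, 1431182_at, was low on 3 of the 4 arrays of high 18S signal, in both genotypes. Its log2 signal was 8.93, 8.87 and 8.87 in BKS 1 to 3 and 6.63 and 6.56 in BKS 4 and 5. In db/db it was 8.54 and 8.72 on the arrays of low 18S signal and 6.68 and 8.02 on those of high 18S signal. The genotype difference was 0.02 (SE 0.57), with a 95% interval of -1.21 to 1.25, and stood at -0.26 and 0.76 within the low and high sets.

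Hspd1 and Hspe1 encode Hsp60 and Hsp10, the barrel and lid of the mitochondrial chaperonin, and lie head to head on chromosome 1. After quantile normalization Hspd1 had nearly the same signal on every array: 13.95, 13.90, 13.89, 13.97 and 13.94 in BKS and 13.68, 13.84, 13.95 and 13.84 in db/db on 1426351_at. The deposited intensities varied more, from 12997 to 19629 in BKS and from 12207 to 18475 in db/db. The normalized difference was -0.10 (SE 0.10, adjusted p = 0.756). The 95% interval of -0.32 to 0.11, on the normalized scale, reaches to a fall of 1.25-fold. The within-set differences were -0.15 at low and -0.06 at high 18S signal. Of the heat shock probe sets Hspd1 had the smallest spread among BKS arrays on the normalized scale (SD 0.03).

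Hspe1 was at -0.09 (SE 0.13, adjusted p = 0.852) on its bright probe set 1450668_s_at, with 13.87, 13.64, 13.66, 13.90 and 13.27 in BKS and 13.63, 13.50, 13.54 and 13.64 in db/db. It was at -0.16 at low and 0.01 at high 18S signal. On the dimmer 1422579_at the db/db arrays lay close together, from 10.59 to 10.77. The BKS arrays were at 10.54, 10.61 and 10.74 where 18S signal was low and at 11.44 and 11.33 where it was high. The difference there was -0.29 (SE 0.19, adjusted p = 0.586) over all arrays, 0.06 where 18S signal was low and -0.80 where it was high. In the high 18S arrays alone, 2 of each genotype, 1422579_at passed (-0.83, adjusted p = 0.0432), while 1450668_s_at was at 0.01.

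Within the BKS group 1 array was high on many heat shock probe sets. BKS 4 gave the highest value on 18 of the 24 probe sets and the lowest on none. Over all 45037 probe sets it was highest on 15.0%, and over the 18392 with a mean log2 signal of at least 7 it was highest on 14.2% and lowest on 12.1%. The 24 share genes and are not independent, and this contrast has no test. BKS 3 and db/db 3 each gave the lowest value on 6. BKS 4 also had the highest 18S signal and the highest 3′ to 5′ ratios of Gapdh and beta-actin, and the part of these in its heat shock signal was not tested. Without it 3 of the 24 probe sets fell: both of Hspb1 and 1438902_a_at of Hsp90aa1. The brightest probe sets of Dnaja1, Hspa8 and Dnajb1 followed that of Hspa1b across arrays once group means were taken off, with Pearson r of 0.85, 0.87 and 0.86 over the 9 arrays. For Hspb1 and Hsph1 r was 0.71 and 0.66, for Hspe1 0.55, and for Hsp90aa1 and Hspd1 0.04 and 0.06. These values describe 9 arrays that share normalization and, in part, the 18S property.

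**Figure D3:**
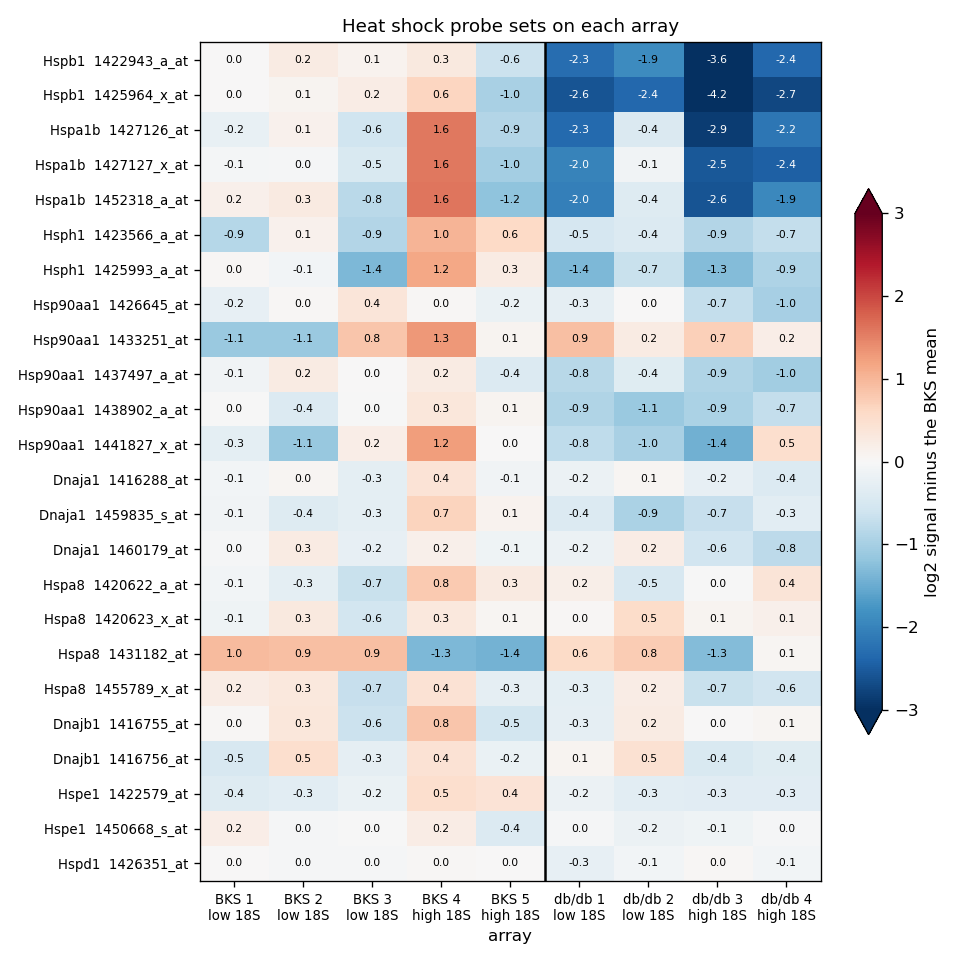
Log2 signal of the 24 probe sets (rows) on the 9 arrays (columns), each minus the BKS mean of that probe set. The colour scale ends at -3 and 3, and the numbers give the values. The Hspb1 rows are low on all 4 db/db arrays, the Hspa1b rows are low on 3 of them and high on BKS 4, and the bottom row, Hspd1, hardly varies on this normalized scale.

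Genes of the wider chaperone network and other quickly changing genes were listed beside the members. Lists of heat shock factors with their binding proteins, co-chaperones, other chaperones, immediate-early, temperature-responsive and clock genes held 142 genes, of which 134 were measured by at least 1 probe set. By the brightest probe set 7 of them rose and 2 fell, against 2.23% and 1.89% of all genes. Of these calls, 4 rises were of clock genes and 1 fall was of an immediate-early gene. The chaperone lists held the others: Fkbp5, Spg7 and Grpel1, which rose, and Clpx, which fell. None of 9 other members of the Hsp70 family passed (median difference -0.20, lowest adjusted p = 0.0643, for Hspa13, a microsomal Hsp70). None of 9 other small heat shock proteins passed (median 0.08). Hspb8, the brightest of these, was at -0.06. Among 23 other J-domain genes none passed (median -0.02), and among 14 genes of the TRiC chaperonin and prefoldin none did (median -0.21, lowest adjusted p = 0.0766, for Cct7).

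Of 23 co-chaperones of Hsp70 and Hsp90 1 rose, and the median was 0.02. This was Fkbp5, an Hsp90-binding immunophilin and a textbook target of the glucocorticoid receptor. Its log2 signal on 1416125_at was 9.26 ± 0.44 in BKS and 10.70 ± 0.14 in db/db (SD, n = 5 and 4), a rise of 1.44 (SE 0.21, adjusted p = 0.00137). A second probe set, 1448231_at, rose by 1.62 (SE 0.30, adjusted p = 0.00855), and the third, 1447736_at, was dim and at -0.10. The groups did not overlap on the first and second, which stood at 1.62 and 1.86 on low 18S arrays and 1.16 and 1.47 on high 18S arrays. None of 6 genes of heat shock factors and their binding proteins passed (median -0.51). Of these only Hsbp1, which binds the factors, was bright (0.38, SE 0.18, adjusted p = 0.367). Hsf1 was not analysed here.

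Among 16 mitochondrial chaperones and proteases 2 rose and 1 fell, with a median of 0.15. Spg7, a subunit of the inner membrane m-AAA protease, rose by 0.93 (SE 0.22, adjusted p = 0.0383), and Grpel1, the nucleotide exchange factor of mitochondrial Hsp70, by 0.48 (SE 0.11, adjusted p = 0.0357). Clpx, the unfoldase of the matrix protease ClpXP, fell by 1.02 (SE 0.22, adjusted p = 0.0222), while its other probe set was at -0.80 with a wide SE of 1.01. Leaving out arrays ended each of these calls. That of Grpel1 was lost in 8 of the 9 fits that left out an array, all but the one without BKS 4 (adjusted p up to 0.120). That of Spg7 was lost in 7 fits, all but those without BKS 5 or db/db 1 (up to 0.141), and that of Clpx in 4, without BKS 1, BKS 3, BKS 4 or db/db 2 (up to 0.0576). Hspa9, the mitochondrial Hsp70 itself, was at -0.22 on its brightest probe set, 1418503_at (SE 0.11, adjusted p = 0.463). Its other 4 probe sets ran from 0.02 to 0.95, of which 1447728_x_at rose (0.95, SE 0.17, adjusted p = 0.00674), so its probe sets disagree.

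**Figure D4:**
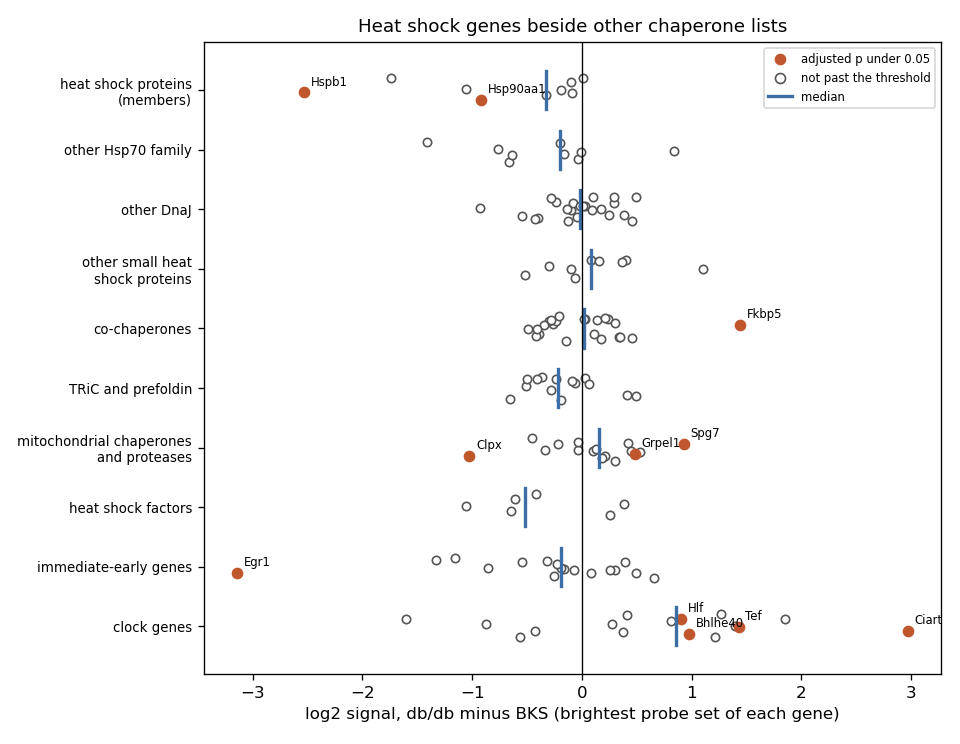
Difference in log2 signal (db/db minus BKS, horizontal axis) of each measured gene by its brightest probe set, grouped by list (vertical axis), with the list median as a blue line. Filled, named points passed at an adjusted p under 0.05. Hspb1 and Hsp90aa1 are the called heat shock genes, and most other chaperones lie near 0.

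Genes that respond quickly to stimuli and to the time of day were set beside the heat shock genes. Of 17 immediate-early genes 1 fell, the transcription factor gene Egr1: 12.30, 10.79, 12.13, 12.25 and 10.99 in BKS and 8.39, 8.88, 7.61 and 9.33 in db/db. The groups did not overlap, and the difference was -3.14 (SE 0.37, adjusted p = 2.58e-04). The list's median was -0.19. Of 16 clock genes 4 rose and none fell (median 0.86), led by Ciart, a repressor in the clock (2.97, SE 0.41, adjusted p = 0.00101), Bhlhe40 (0.98, SE 0.17, adjusted p = 0.00601) and Tef (1.43, SE 0.30, adjusted p = 0.0168). The call of Tef was lost without db/db 2 (1.39) or db/db 3 (1.42, adjusted p = 0.0611). Within low and high 18S arrays Ciart was at 2.33 and 3.68, Bhlhe40 at 1.18 and 0.74, and Tef at 1.90 and 0.74. Ciart was dim in BKS (log2 signal 4.58 to 5.14). In separate fits its call was lost on the low 18S arrays (adjusted p = 0.0811) and that of Bhlhe40 on the high (adjusted p = 0.238). Of clock genes not called, Dbp was at 3.04 and -0.21 within the low and high sets and Cry1 at -0.88 and -0.81. Dbp also differed among the controls, with 7.53, 9.23 and 7.41 in BKS 1 to 3 and 12.03 and 12.74 in BKS 4 and 5. Its db/db arrays ran from 10.32 to 12.22. The median of this list therefore also holds a spread between the 18S sets within BKS. Bhlhe40 had no such split, with 10.24 to 10.71 in BKS. Cirbp, which rises in the cold, was at 0.37 (SE 0.33, adjusted p = 0.717). The part of any of these in the heat shock differences was not tested.

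Markers of cell types, hepatocytes among them, were counted in the same fit. Of 66 marker genes 57 were measured, and none was listed at 0 on any array. None rose and 1 fell, against 2.23% and 1.89% of all genes. The gene that fell was Alas2, the heme synthesis enzyme of red cell precursors (-1.20, SE 0.25, adjusted p = 0.0151, lost without db/db 3 or db/db 4, adjusted p = 0.0638 and 0.0563). In separate fits Alas2 was at -0.51 on the low 18S arrays (adjusted p = 0.308) and at -2.08 on the high 18S arrays (2 of each genotype, adjusted p = 7.25e-04). The summed signal of the 2 measured red cell markers of 6 was 2126 to 3945 in BKS and 878 to 2058 in db/db. Almost all of that sum is Alas2, since Hba-a1 was dim (6.09 in BKS and 6.16 in db/db) and at 0.07 (adjusted p = 0.980). For 10 macrophage markers the summed signal was 5714 to 15528 in BKS and 3923 to 9483 in db/db, and for 8 endothelial markers 2300 to 4236 and 2189 to 4738. The 8 stellate cell and fibroblast markers summed to 4055 to 16168 and 7293 to 17565, and the 8 lymphocyte markers to 816 to 1769 and 609 to 1019. The stellate and fibroblast list had a median difference of 0.41, with 2 of 8 genes negative, and Rgs5 in it was at 1.32 (adjusted p = 0.0672). The 5 measured bile duct markers summed to 530 to 682 in BKS and 296 to 585 in db/db, with a median difference of -0.47. Sox9 and Krt7 among them were at -1.51 and -1.06 (adjusted p = 0.122 and 0.388), and Epcam was at 0.08. Krt7 was dim (6.73 in BKS and 5.67 in db/db). The part of these cells in the heat shock differences was not tested.

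Among 12290 probe sets of other genes with a mean log2 signal of at least 8, the pattern most like that of Hspa1b (1452318_a_at) over the 9 arrays was that of Atp6v1c1 (Pearson r 0.95), a subunit of the vacuolar proton pump. Zdhhc14 (0.93), Smim11 (0.92), Fam210b (0.92) and Hnrnpul2 (0.92) followed. After group means were subtracted the 5 most alike were Atp6v1e1 (0.94), another subunit of that pump, Nr5a2 (0.94), Atp6v1c1 (0.93), Ubxn4 (0.93) and Ubn2 (0.91). For Hspd1 they were Sec23ip (0.97), Ppp2r1a (0.94), Akr1e1 (0.94), 1300002E11Rik (0.94) and Oga (0.94) over the 9 arrays, and Zmpste24 (0.98), Sec23ip (0.97), Selenbp1 (0.95), Fkbpl (0.94) and Tcn2 (0.93) with group means subtracted. With 12290 candidates for Hspa1b, 12292 for Hspd1 and 9 arrays, these values are a description, and none of these genes is a heat shock gene of the lists.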

How the data were processed

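Biotin-labelled RNA of 9 mouse liver samples was hybridised to single-colour Affymetrix arrays, per the labels' protocols. The authors deposited 1 linear intensity per probe set and array. Neither the software nor any background correction is given in the sources used here. Mean deposited intensity after trimming 2% at each end was 500.003 to 500.005 on every array. The table holds no detection calls.

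Groups came from the sample titles. Intensities of 45037 probe sets (64 controls left out) were transformed as log2(value + 16), quantile normalized and tested with limma 3.58.1 in R 4.3.3 (lmFit, eBayes with intensity trend, two-sided, genotype as the only term), with Benjamini-Hochberg adjustment over all 45037 and a threshold of 0.05. The amount added understates the fold changes of dim genes. "Rose" and "fell" mean past that threshold. Of the probe sets, 34945 had 1 gene symbol, 932 several and 9160 were not listed. Gene lists used the brightest of a gene's probe sets. From each list the called genes with the smallest adjusted p, up to 3 per direction, were named, and Hspa9, Cirbp, Hsf1 and Rbm3 whatever their values. Rbm3 was not analysed here. The other genes named (Hspa1a, Hspa13, Hspb8, Cct7, Hsbp1, Dbp, Cry1 and the markers Alas2, Hba-a1, Sox9, Krt7, Epcam and Rgs5) were chosen after their values were seen.

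The members, lists and alternatives, the 18S split among them, were chosen with earlier results of these data known. The interaction test was added later. The procedure was tested on simulated data with known changes in bright probe sets. It recovered 13.4% of 1.5-fold, 58.8% of 2-fold and 93.6% of 4-fold changes, and 4.96% of its calls were false. The simulated noise was independent between probe sets and held no 18S split. A probe set that did not pass may therefore still differ. The number of arrays limits the precision.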

Additional observations from a re-analysis of the deposited data

Results flagged for a closer look

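Of 48 groups examined (24 probe sets in 2 genotypes) 1 had an array far from the others. Hspe1 on 1422579_at was at 10.77 in db/db 1 and at 10.61 or below in the other 3 db/db arrays, a gap of 0.87 of the group's range. Chance gives such a gap in about 1 of 20 groups.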

How the results depend on the processing

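Leaving out 1 array at a time gave 704 to 1202 called probe sets of all, against 1249 with every array, and 3 to 7 of the 24 heat shock probe sets, against 4. The lowest count of all came without db/db 3 and the highest heat shock count without db/db 2. The called heat shock genes numbered 2 to 3, against 2, and the genes of the chaperone, immediate-early, temperature and clock lists 5 to 8, against 9. Both Hspb1 probe sets passed under every alternative run. The other alternatives were pseudocounts of 1 and 64, no quantile normalization, median centring, a filter on dim probe sets, probe sets with 1 symbol, array weights, a robust test, a test without intensity trend, the 18S split as a block, and the arrays of low or high 18S signal alone. Keeping 1 probe set a gene gives no count of probe sets.

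With median centring 666 probe sets were called in all, without the trend 388, with the 18S block 2186, on the low 18S arrays alone 528 and on the high 18S arrays alone 662. Median centring, the test without trend and the low 18S arrays each left 2 heat shock probe sets and 1 gene, that gene being Hspb1. The list genes numbered 3 without the trend, 18 with the 18S block and 5 on the high 18S arrays. The cause of these shifts was not tested, though the low and high sets hold fewer arrays.

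The replicate numbers of the labels were not taken as pairs, since same-numbered samples deviated together with r of 0.04, 0.23, -0.15 and 0.15. With the number as a replicate block, which drops BKS 5, 7 heat shock probe sets and 1497 of all were called. The probe sets gained were the 3 of Hspa1b (adjusted p = 0.00918, 0.0326 and 0.0075 for 1427126_at, 1427127_x_at and 1452318_a_at), so that Hspa1b became the third called gene. Under that block Dnajb1 1416755_at was at -0.13 and Hspa8 1431182_at at -0.33.

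Small differences changed sign. Without quantile normalization Dnajb1 1416755_at was at -0.014 and Hspa8 1431182_at at -0.0012. The latter was at -0.013 with a pseudocount of 64 and -0.090 with array weights. With the 18S block Dnajb1 1416755_at was at -0.0094 and Hspa8 1420622_a_at at -0.051. On the high 18S arrays Dnajb1 1416755_at was at -0.12, Hsp90aa1 1433251_at at -0.22, Hspa8 1420622_a_at at -0.37 and 1420623_x_at at -0.074, and Hspe1 1450668_s_at at 0.012. On the low 18S arrays Dnaja1 1416288_at was at 0.045 and 1460179_at at 0.029, Dnajb1 1416756_at at 0.34, Hspa8 1431182_at at -0.24 and 1455789_x_at at 0.026, Hspe1 1422579_at at 0.057 and Hsph1 1423566_a_at at 0.074. Leaving out 1 array moved Dnajb1 1416755_at from -0.16 to 0.21, 1416756_at from -0.25 to 0.058, Hspa8 1420622_a_at from -0.16 to 0.21 and 1431182_at from -0.33 to 0.47. No probe set passed with the sign turned, while Hsph1 1423566_a_at and Hspe1 1422579_at passed as lower on the high 18S arrays.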
